A study of Rattus norvegicus with 4 samples.

Results

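The endoplasmic reticulum (ER) folds the proteins that a neuron secretes or inserts into its membranes, and 34 genes of ER chaperones, ER-associated degradation and the 3 arms of the unfolded protein response were followed here in rat cortical neurons with a PHF6 shRNA. The genes were taken by name, and a gene was measured where a probe set of the array was annotated to it alone, with the brightest probe set used for a gene with several. By that rule 33 of the 34 genes had a value, among 17245 named genes, and Sesn2 was not analysed here. The 4 arrays carried total RNA from primary cortical neurons of Sprague Dawley rats taken at embryonic day 18, infected with pLL3.7 lentivirus and harvested 5 days after infection. In 2 arrays the virus expressed a control shRNA (genotype given as wild type) and in 2 it expressed PHF6shRNA-2 (genotype given as PHF6 knockdown). Infection with this vector is common to both groups, and PHF6, a chromatin-associated protein with PHD-type zinc fingers, was targeted with a single hairpin, so loss of PHF6 and other effects of that hairpin cannot be told apart. The duplicates are labelled biological, with no statement of separate cultures or animals, so p-values measure the spread between these arrays.

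When unfolded proteins accumulate in the ER, the sensors IRE1 (Ern1), PERK (Eif2ak3) and ATF6 are activated in the ER membrane. IRE1 splices the Xbp1 messenger, ATF6 is cut in the Golgi to free a transcription factor, and both raise chaperones and degradation factors. PERK phosphorylates the translation factor eIF2alpha, which slows protein synthesis and favours translation of ATF4, and ATF4 in turn raises Ddit3, Trib3, Chac1, Asns and other stress and amino acid genes. Much of the response acts on protein or splicing, which probe set intensities of whole genes do not show.

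Many of these genes are known to be controlled through short promoter elements, so their promoters were searched and are described first. The search was made after the values had been compared. The ER stress element (ERSE) was searched as CCAAT and CCACG with 9 bases between them, ERSE-II as ATTGG and CCACG with 1 base between them, the unfolded protein response element (UPRE) as TGACGTGG, and the C/EBP-ATF response element (CARE) as TGATG and AA with 1 base between them, all on both strands. The windows were RefSeq's, on GRCr8, from 250 bases before to 50 bases after an annotated start, and 28 of the 34 genes had one. ERSE stood in 8 of the 28 (28.6%), against 0.0765% of all 27457 genes with a window. ERSE-II stood in 3 (10.7%, against 0.0619%), UPRE in 2 (7.14%, against 0.681%) and CARE in 3 (10.7%, against 4.16%). Several of these genes are textbook carriers of the elements, so the counts describe the list and are no finding about these neurons.

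The ERSE matches of 7 of the 8 genes are shown to compare them base by base, each read in the direction in which CCAAT comes first, with the searched bases in capitals and 10 bases on either side. The 2 parts are fixed by the search, and the bases between them differ from gene to gene.
Hspa5 (GRCr8 chr3:38452963-38453001, plus strand): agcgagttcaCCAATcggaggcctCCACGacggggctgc
Hsp90b1 (chr7:23012441-23012479, minus strand): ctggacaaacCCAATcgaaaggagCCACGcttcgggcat
Hsp90b1 (chr7:23012337-23012375, plus strand): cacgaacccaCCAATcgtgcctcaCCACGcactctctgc
Dnajc3 (chr15:102432524-102432562, plus strand): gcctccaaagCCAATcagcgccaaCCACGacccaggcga
Calr (chr19:40213125-40213163, minus strand): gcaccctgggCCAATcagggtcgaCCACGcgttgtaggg
Creld2 (chr7:121789229-121789267, minus strand): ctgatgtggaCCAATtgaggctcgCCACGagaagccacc
Derl3 (chr20:12766591-12766629, plus strand): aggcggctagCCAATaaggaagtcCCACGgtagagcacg
Xbp1 (chr14:84604548-84604586, plus strand): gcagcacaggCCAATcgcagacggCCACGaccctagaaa

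The ERSE-II matches lay in Hyou1, Dnajb11 and Herpud1 and are shown in the same way, with ATTGG first.
Hyou1 (GRCr8 chr8:53602684-53602714, minus strand): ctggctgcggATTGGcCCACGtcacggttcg
Hyou1 (chr8:53602784-53602814, minus strand): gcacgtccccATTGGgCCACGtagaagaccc
Dnajb11 (chr11:91672790-91672820, minus strand): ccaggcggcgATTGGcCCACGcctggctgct
Herpud1 (chr19:10614811-10614841, minus strand): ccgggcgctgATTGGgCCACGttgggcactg

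The CARE matches, the kind of site ATF4 binds, lay in Herpud1, Chac1 and Trib3.
Herpud1 (GRCr8 chr19:10614874-10614901, plus strand): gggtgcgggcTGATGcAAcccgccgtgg
Chac1 (chr3:126795954-126795981, minus strand): ctagcaggagTGATGcAAcggcggagaa
Trib3 (chr3:161275537-161275564, plus strand): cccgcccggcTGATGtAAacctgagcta

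The window of Hyou1, the listed gene with the largest difference between the groups, is shown whole because it holds both ERSE-II matches and a UPRE match that overlaps one of them (all in capitals). A second annotated start of Hyou1 had no match.
Hyou1 (GRCr8 chr8:53602632-53602931, plus strand): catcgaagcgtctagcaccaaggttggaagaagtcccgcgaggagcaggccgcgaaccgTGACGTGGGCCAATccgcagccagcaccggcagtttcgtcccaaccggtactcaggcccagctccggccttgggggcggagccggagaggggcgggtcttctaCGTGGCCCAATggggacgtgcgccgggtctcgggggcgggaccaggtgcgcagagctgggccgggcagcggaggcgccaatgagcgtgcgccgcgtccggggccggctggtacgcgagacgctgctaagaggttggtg

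The arrays were alike in overall level, with median intensities over all probe sets from 40.9 to 41.7. As a measure of background, the intensity that 95% of 206 chemosensory (olfactory and vomeronasal) receptor genes did not exceed was taken per array. It was higher in the duplicates numbered 1 (41.1 and 39.9) than in those numbered 2 (32.5 and 32.7). Of the 33 measured genes, 31 were above it on all 4 arrays, Derl3 on 2 and Trib3 on none. Phf6 itself had intensities of 32.8 and 34.3 in control and 34.4 and 31.3 in PHF6 shRNA arrays and exceeded background on 1 of them, so it does not check the labels, on which every direction below rests. The neuronal markers (Tubb3, Map2, Rbfox3, Snap25, Syt1, Stmn2, Dcx and Nefl) were all above background on all 4 arrays, so the labelled cell type had its defining transcripts. Their summed intensity was 12107 and 12156 in control and 10755 and 11079 in PHF6 shRNA arrays, lower in both. Of these 8 markers, 7 had a negative difference, PHF6 shRNA minus control, with a median of -0.15 log2 units. Of 7 measured astrocyte markers, 4 were above background on every array and Gfap and Gja1 on 2 of them, and the summed intensity was 687 and 1252 in control and 1003 and 1539 in PHF6 shRNA arrays. All 7 had a positive difference, with a median of 0.14 log2 units. Slc1a3, with 254 and 622 in control and 278 and 665 in PHF6 shRNA arrays, differed mostly by duplicate number. The groups stood apart for Slc1a2 (140 and 210 against 318 and 357) and Aldoc (145 and 206 against 246 and 283). The sums overlapped in oligodendrocyte lineage markers (313 and 393 against 294 and 382), in microglial markers (186 and 165 against 184 and 178) and in vascular and meningeal markers (210 and 193 against 218 and 201), with Pdgfra, Aif1, Itgam, Csf1r, Cldn5 and Lum above background on no array. The part of these shifts in the results below was not tested. In bulk RNA, fewer cells of a type and less RNA per cell cannot be told apart.

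Across the list, most genes read lower with PHF6 shRNA by small amounts. The intensities of the 33 genes summed to 14720 and 14481 in control arrays and to 13465 and 13195 in PHF6 shRNA arrays. The difference, PHF6 shRNA minus control in log2 units, was negative for 26 of the 33 and positive for 7, with a median of -0.15, and ran from -0.47 (Hyou1) to 0.34 (Edem1). Over all 17245 genes the median was -0.01 and 52.3% were negative, while in the brightest 25% of genes, which held 23 of the 33, the median was -0.08 and 66.0% were negative. Both arrays of PHF6 shRNA were below both controls for 16 of the 33, where 21.7% of all genes and 38.9% of the brightest 25% did so, and above both for 3, where 16% and 13.8% did so. Without control duplicate 2 the median of the list was -0.08, and without PHF6 shRNA duplicate 2 it was -0.07. Under further quantile normalization or cyclic loess 22 of the 33 were negative, with medians of -0.10 and -0.09, while the brightest 25% of genes moved to -0.02 and 0.00. Dnajc10, Canx, Pdia6 and Syvn1 changed sign under both scalings, each from a difference no larger than 0.05 in size.

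The main fit had no block for the duplicate number. In it no gene of the list passed limma's test after Benjamini-Hochberg adjustment over all 17245 genes (adjusted p under 0.05). Neither did any other gene (0% called, smallest adjusted p = 0.23). With that block 909 of the 17245 genes passed, 3 of the 33 among them, but no label says that the numbers pair arrays. At an unadjusted p under 0.05, limma's main fit gave 6 of the 33 toward lower signal, against 7.52% of all genes and 17.3% of the brightest 25%. It gave 1 toward higher signal, against 3.28% and 5.43%. The 6 are 18.2% of the list, close to the share of the brightest genes. Fits with 1 array left out keep 1 array in a group, so only differences are given for them. Further quantile normalization and cyclic loess each gave 3 toward lower signal (Hyou1, Dnajc3 and Pdia4), and the share of all genes was not counted under them. P4hb, Creld2 and Xbp1, which were among the 6 in the main fit, were above that p under both. With 2 arrays a group, an exact test of 1 gene cannot give a two-sided p below 0.333.

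**Figure D1:**
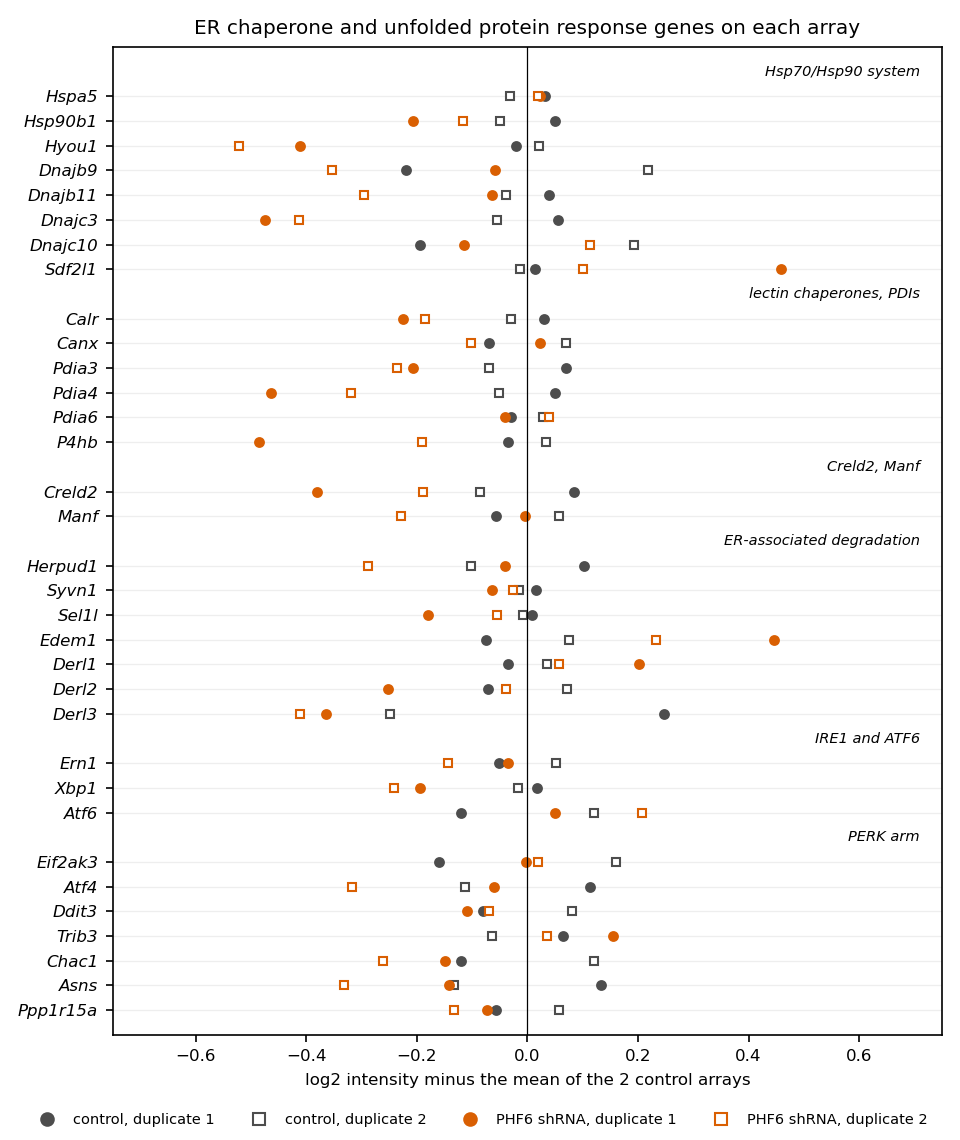
Log2 intensity of each measured gene on each of the 4 arrays, minus the mean of its 2 control arrays, with genes grouped by role (grey control, orange PHF6 shRNA, filled circles duplicate 1, open squares duplicate 2). Both orange points lie left of both grey points for 16 of the 33 genes and right of both for 3 (Sdf2l1, Edem1 and Derl1).

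The Hsp70 and Hsp90 folding system of the ER had negative differences in 6 of 8 genes, Dnajc10 at 0.00 among them, with a median of -0.17. The median was -0.089 without PHF6 shRNA duplicate 2, -0.11 without control duplicate 2 and -0.088 under cyclic loess. Hspa5 (BiP), the Hsp70 that binds nascent chains and holds the 3 sensors inactive, had intensities of 1822 and 1743 in control and 1810 and 1805 in PHF6 shRNA arrays. The groups overlapped and the difference was 0.02. Hyou1, a large Hsp70-related protein that exchanges the nucleotide of BiP, had intensities of 252 and 260 in control and 192 and 178 in PHF6 shRNA arrays. Both PHF6 shRNA arrays were low and the groups stood apart, at 72.4% of control, with a difference of -0.47 ± 0.09 (SE; limma adjusted p = 0.24). Dnajc3 (p58IPK), a J-domain co-chaperone of BiP also known as an inhibitor of PERK, had intensities of 161 and 149 against 111 and 116. It too stood apart, at 73.5% of control, with a difference of -0.44 ± 0.09 (limma adjusted p = 0.24).

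The other genes of this system had differences between -0.21 and 0.28. Hsp90b1 (GRP94), the ER form of Hsp90, had intensities of 946 and 883 against 792 and 843, apart by a narrow margin, with a difference of -0.16. Dnajb11 (ERdj3), a BiP co-chaperone for unfolded substrates, read 248 and 234 against 231 and 196, a difference of -0.18 that was -0.063 without PHF6 shRNA duplicate 2. In Dnajb9 (ERdj4), a co-chaperone that directs substrates to degradation, the duplicates of a group differed more than the groups did, with 148 and 200 in control and 165 and 135 in PHF6 shRNA arrays. Its difference was -0.21, and 0.01 without control duplicate 2. Dnajc10 (ERdj5), a reductase of misfolded proteins, read 217 and 284 against 230 and 269, so its groups overlapped and its difference was 0.00. Sdf2l1, a partner of BiP and ERdj3 in ER chaperone complexes, went the other way, with 49.1 and 48.1 in control and 66.8 and 52.1 in PHF6 shRNA arrays. The difference was 0.28, and 0.10 without PHF6 shRNA duplicate 1.

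Lectin chaperones and protein disulfide isomerases had 6 negative differences of 6, with a median of -0.21, although Pdia6 was at 0.00. The median lay between -0.26 and -0.16 when any 1 array was left out. Under further quantile normalization and cyclic loess it was -0.19 and -0.15, and 4 of the 6 were negative. Pdia4 (ERp72), a disulfide isomerase, had intensities of 281 and 262 in control and 197 and 218 in PHF6 shRNA arrays. The groups stood apart, at 76.2% of control, with a difference of -0.39 ± 0.10 (limma adjusted p = 0.28). P4hb, the founding disulfide isomerase PDI, had intensities of 527 and 553 against 385 and 473. Its groups stood apart but the PHF6 shRNA duplicates differed from each other by 0.30, and the difference between groups was -0.34 ± 0.12 (limma adjusted p = 0.41). It was -0.19 without PHF6 shRNA duplicate 1.

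The calnexin cycle, which folds glycoproteins, was represented by Calr, Canx and their partner Pdia3. Calr, the luminal lectin calreticulin, read 1386 and 1330 in control and 1162 and 1194 in PHF6 shRNA arrays, a difference of -0.21 with the groups apart. Pdia3 (ERp57), the isomerase that both lectins recruit, read 1995 and 1813 against 1648 and 1615, a difference of -0.22 with the groups apart. Canx, the membrane-bound lectin calnexin, read 1658 and 1826 against 1767 and 1621, with overlap and a difference of -0.04. Pdia6 (P5), an isomerase that regulates IRE1 and PERK, read 508 and 529 against 504 and 533, nearly the same array by array.

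Creld2 and Manf, small ER-resident and secreted stress proteins, had a median difference of -0.20, or -0.13 under cyclic loess. Creld2 had intensities of 105 and 93.0 in control and 75.8 and 86.5 in PHF6 shRNA arrays. Its groups stood apart, at 82.1% of control, with a difference of -0.28 ± 0.11 (limma adjusted p = 0.45), and it was -0.19 without PHF6 shRNA duplicate 1. Manf, a neurotrophic factor, read 238 and 258 against 247 and 212. Its groups overlapped and the difference was -0.12.

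ER-associated degradation, which exports misfolded proteins to the proteasome, held differences in both directions, with 5 of 7 negative and a median of -0.12. Leaving out any 1 array brought this median to between -0.075 and -0.039, and further quantile normalization and cyclic loess brought it to -0.044 and -0.029. Edem1, a mannosidase-like lectin that hands misfolded glycoproteins to the export channel, was the only gene of the list toward higher signal at an unadjusted p under 0.05. Its intensities were 162 and 179 in control and 232 and 200 in PHF6 shRNA arrays, with both PHF6 shRNA arrays high. The signal was 127% of control, a difference of 0.34 ± 0.11 (limma adjusted p = 0.39), and it was 0.23 without PHF6 shRNA duplicate 1. The core ligase and its partner were lower in both PHF6 shRNA arrays by small amounts. Syvn1 (HRD1), the ubiquitin ligase, read 258 and 253 against 244 and 251, and Sel1l, its adaptor, read 196 and 194 against 172 and 188, with differences of -0.05 and -0.12.

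The remaining degradation genes had differences between -0.39 and 0.13. Herpud1, a ligase cofactor whose messenger follows ER stress closely, read 236 and 205 in control and 214 and 180 in PHF6 shRNA arrays. The groups overlapped, the difference was -0.16, and the duplicate numbered 2 was the lower of the pair in both groups. Among the derlins, which form part of the export channel, Derl1 read 183 and 192 against 215 and 195 (0.13, groups apart) and Derl2 read 51.7 and 57.0 against 45.5 and 52.8 (-0.15, overlap). Derl3 read 47.1 and 33.4 against 30.8 and 29.8. Its difference of -0.39 is no exact measure, because both PHF6 shRNA arrays lay below background.

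The IRE1 and ATF6 arms were represented by the sensors and by Xbp1, and 2 of the 3 differences were negative. Their median of -0.089 became -0.14 when duplicate 1 of either group was dropped, and -0.038 or -0.035 when duplicate 2 of the control or the PHF6 shRNA group was. Under cyclic loess it was -0.048. Xbp1, the transcription factor made active by IRE1 splicing, had intensities of 1011 and 987 in control and 873 and 845 in PHF6 shRNA arrays. Its groups stood apart with close duplicates, at 86.0% of control, with a difference of -0.22 ± 0.08 (limma adjusted p = 0.43). Under cyclic loess the difference was -0.14, and the unadjusted limma p was above 0.05 under all 3 scalings (0.066 to 0.13). The value is for the whole gene and does not separate spliced from unspliced messenger. Ern1, the sensor IRE1, read 77.3 and 83.0 against 78.1 and 72.5, with overlap and a difference of -0.09. Atf6 read 156 and 184 against 175 and 195, with overlap and a difference of 0.13, and in both groups its duplicate numbered 2 was the higher.

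In the PERK arm no gene had an unadjusted limma p under 0.05, and 5 of 7 differences were negative, with a median of -0.10, which was -0.046 without control duplicate 2. Eif2ak3, the sensor PERK, read 156 and 195 in control and 174 and 177 in PHF6 shRNA arrays, a difference of 0.01 with the PHF6 shRNA values between the controls. Atf4 read 393 and 336 against 348 and 292, with overlap and a difference of -0.19. Asns, the asparagine synthetase that ATF4 raises, read 977 and 812 against 807 and 708. Its groups were apart by a narrow margin, with a difference of -0.24. Atf4 and Asns were both lower in the duplicate numbered 2 than in that numbered 1 within each group, by 0.22 and 0.27 in control arrays and by 0.26 and 0.19 in PHF6 shRNA arrays.

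The stress effectors of this arm had differences between -0.21 and 0.09. Ddit3 (CHOP), a transcription factor of prolonged stress, read 91.8 and 103 in control and 90.0 and 92.4 in PHF6 shRNA arrays, a difference of -0.09 with overlap. Ppp1r15a (GADD34), which returns eIF2alpha to its active state, read 54.5 and 58.9 against 53.9 and 51.7, a difference of -0.10. Chac1, a glutathione-degrading enzyme, read 99.7 and 118 against 97.7 and 90.5, a difference of -0.21, and its second, dimmer probe set gave -0.16. Trib3, a pseudokinase induced by ATF4 and CHOP, read 28.3 and 25.9 against 30.2 and 27.8, below background on every array, so no change can be read from it.

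**Figure D2:**
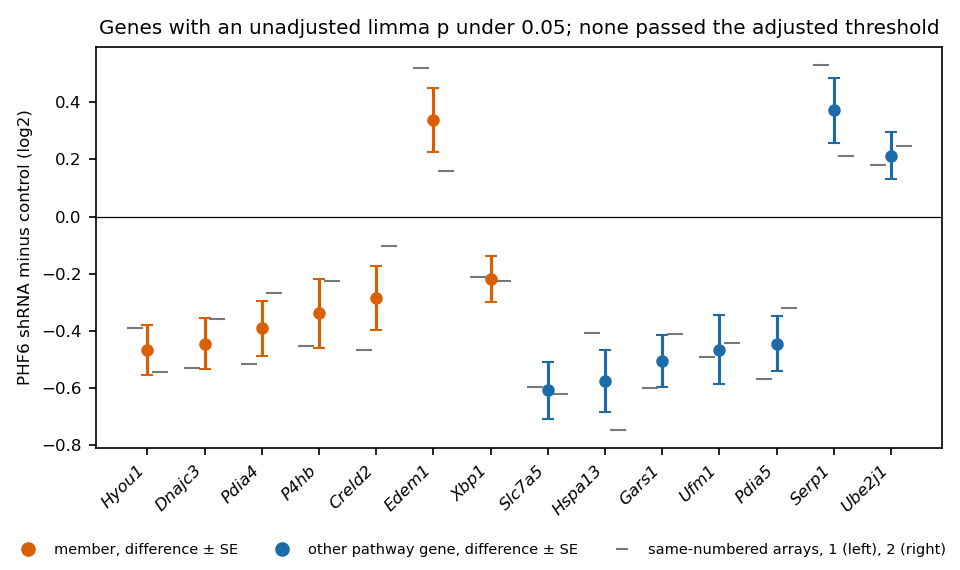
Differences between PHF6 shRNA and control in log2 units with limma's SE (n = 2 arrays a group), for genes with an unadjusted p under 0.05. Listed genes (orange) are all shown. Of the other pathway genes (blue), 14 were lower and 2 higher at that p. At most the 5 with the largest differences in each direction and groups apart are shown. Grey ticks are the differences between same-numbered arrays. The groups of every gene shown stand apart, so both its ticks must lie on the same side of 0. None of the genes passed the adjusted threshold.

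Genes with an element in their promoter had differences of varied size. Of the 11 with ERSE or ERSE-II, 10 had a negative difference, with a median of -0.21, and of the 16 measured genes with a window but neither element, 12 did, with a median of -0.11. Within the carriers the differences ran from -0.47 (Hyou1, 2 ERSE-II matches) and -0.44 (Dnajc3, 1 ERSE) to -0.16 (Hsp90b1, 2 ERSE) and 0.02 (Hspa5, 1 ERSE). Pdia4, P4hb and Edem1, all with an unadjusted limma p under 0.05, had no match to any of the 4 elements in this window. Outside the list, 18 measured genes held ERSE or ERSE-II, of which 10 had a negative difference, with a median of -0.02. Of the CARE carriers, Chac1 and Herpud1 had negative differences and Trib3 was below background. These are descriptions over genes chosen for their function, with no test.

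**Figure D3:**
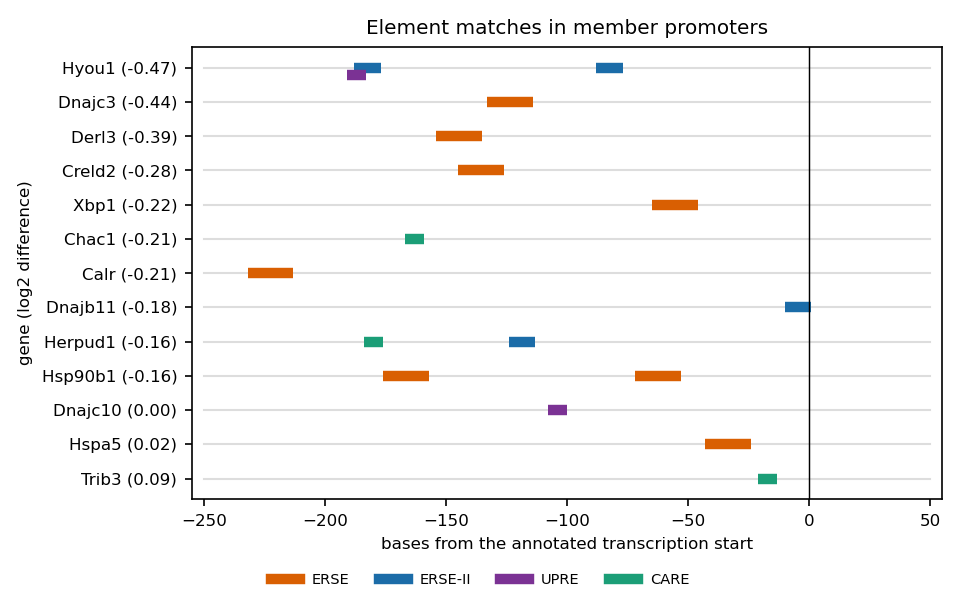
Positions of the 4 searched elements in the promoter windows of 13 of the 14 listed genes that hold any, in bases from the annotated transcription start, ordered by the log2 difference given in brackets. ERSE carriers span much of the order, with Dnajc3 at -0.44 and Hspa5 at 0.02.

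Other genes of the same pathways, 100 in all, were measured in 90 cases, and 55 of the 90 had a negative difference, with a median of -0.08. At an unadjusted limma p under 0.05, 14 were lower (15.6%, against 7.52% of all genes and 17.3% of the brightest 25%, which held 51 of them) and 2 were higher (2.22%, against 3.28% and 5.43%). None passed the adjusted threshold (limma, smallest adjusted p = 0.23). Without control duplicate 1 their median was -0.15, without control duplicate 2 it was -0.04, and under cyclic loess it was -0.02.

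**Figure D4:**
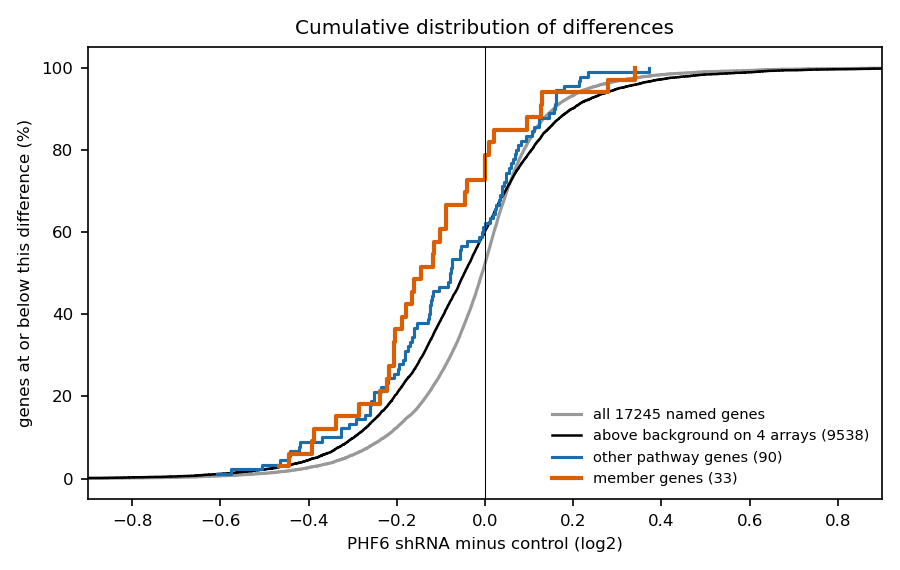
Cumulative share of genes at or below each log2 difference, for all 17245 genes (grey), the 9538 above background on all 4 arrays (black), the 90 other pathway genes (blue) and the 33 listed genes (orange). At a difference of 0 the listed genes stand at 78.8%, the other pathway genes at 61.1%, genes above background at 60.2% and all genes at 52.3%.

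Among other folding genes, 19 of 27 were negative, with a median of -0.10, which was -0.19 without control duplicate 1 and -0.011 without control duplicate 2. Hspa13, an Hsp70-like protein of microsomes, had intensities of 215 and 248 in control and 162 and 148 in PHF6 shRNA arrays. It was at 67.1% of control, with a difference of -0.58 ± 0.11 (limma adjusted p = 0.24). Pdia5, a disulfide isomerase, had 63.2 and 58.2 against 42.6 and 46.6, a difference of -0.44 ± 0.10 (limma adjusted p = 0.24). Serp1, a small protein that associates with the translocon under stress, was high in both PHF6 shRNA arrays, with 368 and 444 against 531 and 515, a difference of 0.37 ± 0.12 (limma adjusted p = 0.36). It was 0.24 without control duplicate 1.

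Among other degradation genes 15 of 20 were negative, with a median of -0.13, which was -0.062 without control duplicate 2 and -0.059 under cyclic loess. The lowest difference was that of Ube2g2, a ubiquitin-conjugating enzyme, named here after its values were seen, with 330 and 326 in control and 247 and 242 in PHF6 shRNA arrays, a difference of -0.42. Ube2j1, the membrane-anchored ubiquitin-conjugating enzyme that works with Syvn1, was higher in both PHF6 shRNA arrays, with 627 and 628 in control and 710 and 746 in PHF6 shRNA arrays. Its difference was 0.21 ± 0.08 (limma adjusted p = 0.45). Other regulators of the IRE1 and ATF6 arms had a median of -0.04, which became 0.01 under cyclic loess and -0.074 and -0.013 without control duplicates 1 and 2. Ufm1, a ubiquitin-like modifier needed for ER homeostasis, was the lowest among them, with 119 and 136 against 85.0 and 99.9, a difference of -0.47 ± 0.12 (limma adjusted p = 0.29).

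Other genes of the PERK and ATF4 response went both ways, with 13 of 29 negative and a median of 0.02, which lay between -0.13 and -0.0035 when any 1 of the 4 arrays was left out. Slc7a5, the large neutral amino acid transporter, had intensities of 840 and 934 in control and 556 and 608 in PHF6 shRNA arrays. It was at 65.6% of control, with a difference of -0.61 ± 0.10 (limma adjusted p = 0.23). Gars1, the glycyl-tRNA synthetase, had 798 and 722 against 527 and 543, a difference of -0.51 ± 0.09 (limma adjusted p = 0.24). All 6 tRNA synthetases on the list (Aars1, Cars1, Gars1, Nars1, Sars1 and Wars1), a group looked at after its values were seen, were lower in both PHF6 shRNA arrays, with differences from -0.51 to -0.18. So were 21.7% of all genes and 38.9% of the brightest 25%. Atf3, a classic stress-induced transcription factor of the same list, had overlapping groups, at 58.7 and 63.6 in control and 65.1 and 60.9 in PHF6 shRNA arrays. Nupr1 and Cebpb were above background on no array.

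**Figure D5:**
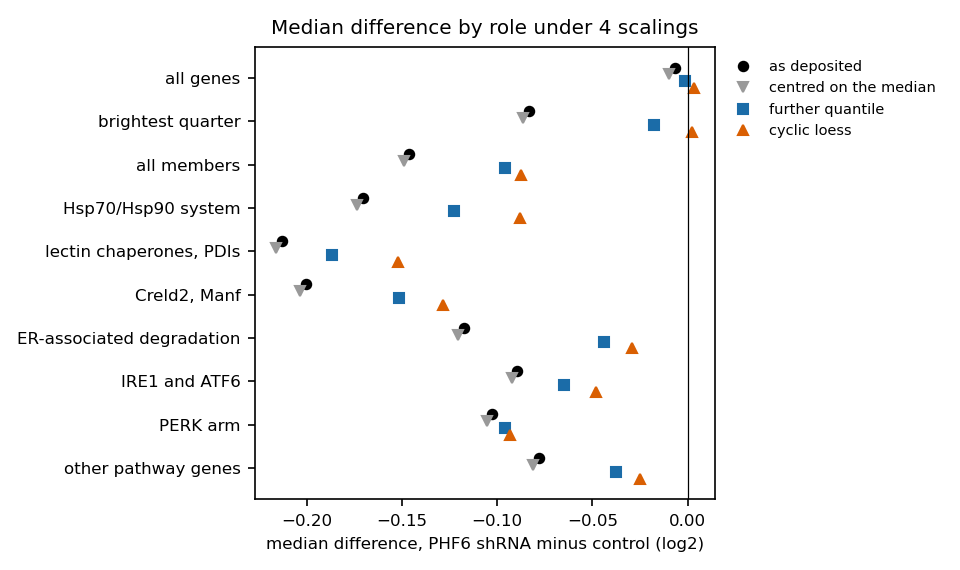
Median log2 difference of all genes, the brightest 25%, the listed genes by role and the other pathway genes, with the values as deposited and under 3 other scalings. The median of the 33 listed genes lies between -0.15 and -0.09 under all 4, and that of the brightest 25% between -0.09 and 0.00.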

How the data were processed

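Expression was measured on 1-colour Affymetrix whole-transcript arrays of biotin-labelled total RNA. The deposited values are probe set intensities that the authors made with RMA, per the submitters' processing notes, a method that corrects background, equalises quantiles between arrays and summarises probe sets, while its version is not given in the sources used here. They run from 8.57 to 6121, a linear scale, so log2 was taken, and RMA compresses differences of dim probe sets. Scanner files and detection calls were not used here. Precision is limited by having 2 arrays a group.

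Of 29214 probe sets, 18644 carried 1 gene, 962 several and 9608 none in the platform annotation. Symbols of 18460 were updated by gene identifier to RefSeq (GRCr8) and 184, Derl2 among them, kept as annotated. Groups were taken from the sample titles and compared in R 4.3.3 by the package limma 3.58.1 (eBayes after lmFit, 2-sided, no covariate, no filter) over all 17245 genes with Benjamini-Hochberg adjustment at 0.05, and the fit was tested on simulated data. Alternatives were a block for the duplicate number, the omission of each array, 3 scalings, 2 filters on dim genes, another prior, the mean of probe sets and log2(intensity + 16). The listed genes, the other lists and the tests were chosen with earlier results of these data known. Statistics are quoted for listed genes with an unadjusted p under 0.05 and for up to 5 other pathway genes in each direction with such a p and groups apart, and other genes are given as values. Promoters were matched to genes by symbol, and 1 match is not reported here.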

Additional observations from a re-analysis of the deposited data

How the results depend on the processing

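The labels give both groups the numbers 1 and 2 but do not say that a number pairs arrays, and 2 pairs cannot settle it, although the deviations of same-numbered arrays correlated across genes (r = 0.57). With the duplicate number as a replicate block, 909 of the 17245 genes passed limma's adjusted threshold. Of the 33 listed genes 3 did (adjusted p = 0.022 for Hyou1, 0.026 for Dnajc3 and 0.048 for Pdia4). At an unadjusted p under 0.05, 11 listed genes were lower and 2 higher with the block. The share of all genes at that p was not counted in this fit, so these counts do not set the list apart. Among the other pathway genes given with statistics, the block brought Slc7a5 (0.0083), Hspa13 (0.020), Gars1 (0.019), Ufm1 (0.019) and Pdia5 (0.033) past the threshold. The 14 genes given with statistics kept their direction under all 13 alternatives, but most of these could not reverse it. The groups of each gene stand apart, so neither leaving out an array nor log2(intensity + 16) could do so. The block, the filters, the other prior and the mean of probe sets left their differences unchanged. Only the 3 scalings could have reversed a direction. Leaving out each array in turn gave 0 to 90 genes past the threshold (90 without PHF6 shRNA duplicate 2, 2 without PHF6 shRNA duplicate 1) and no listed gene, 3 to 7 listed genes lower and 0 to 2 higher at an unadjusted p under 0.05, 23 to 27 listed genes with a negative difference, list medians from -0.14 to -0.073, and medians of the other pathway genes from -0.15 to -0.044. For the fits with an array left out, the share of all genes at that unadjusted p was not counted. Their counts of listed genes therefore do not set the list apart. Further quantile normalization and cyclic loess each left 3 listed genes lower at an unadjusted p under 0.05, with the share of all genes not counted. The list medians were -0.096 and -0.087, and cyclic loess gave the other pathway genes -0.025. With log2(intensity + 16) the list median was -0.11. The causes of these shifts were not tested. Values of Trib3 and Derl3 are limited by signal near background.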

Other observations

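Several listed genes differed more between the duplicates of a group than between the groups. The array numbered 2 minus the array numbered 1, in log2 units, was 0.44 in control and -0.29 in PHF6 shRNA arrays for Dnajb9, and 0.39 and 0.23 for Dnajc10. It was -0.50 and -0.05 for Derl3, which lay near background, and 0.32 and 0.02 for Eif2ak3. Over the 33 listed genes the median of this difference was -0.02 in control and -0.05 in PHF6 shRNA arrays.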
